A study of Mus musculus with 16 samples.

Results

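The mouse genes named Zfp900 to Zfp999 encode C2H2 zinc finger proteins, and their transcripts were followed here in epidermis with and without C/EBPβ, before and after ultraviolet B (UVB). Members were all rows of the raw count table whose Ensembl identifier mapped to Zfp9 followed by exactly 2 digits and that held 1 or more counts in any of the 16 libraries. The table held 64 such symbols, and 59 met the rule, out of 29007 genes with a count. Members were thus selected on their name and on having a count. At its edge, Zfp986 was the member with the fewest counts, 4 over all libraries, and Zfp953, Zfp960, Zfp967, Zfp978 and Zfp988 had 0 counts throughout and were left out.

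The SKH-1 stock is hairless, and its epidermis was taken at 8 to 12 weeks of age and separated by heat shock. Control mice were labelled K5Cre, that is, they carried the Cre recombinase driven by the keratin 5 promoter, which is active in basal keratinocytes. Knockout mice were labelled C/EBPB -/- with an epidermis-specific deletion, and the labels do not state the floxed allele or the Cre of this group. Each genotype was either unexposed or collected 6 h after 100 mJ/cm2 of UVB, giving 4 groups of 4 libraries. The labels do not say how many animals stand behind the libraries of a group. In each group 2 libraries read above 10 CPM (counts scaled to library size) for Ddx3y, a gene of the Y chromosome, and 2 did not, so each group mixed RNA of both sexes and came from more than 1 animal. Whether every library is a separate animal is not stated.

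Most proteins of this kind carry a KRAB domain followed by a row of zinc fingers that read DNA. The KRAB domain binds Trim28, also called KAP1, a scaffold that brings in the histone H3 lysine 9 methyltransferase Setdb1, HP1 proteins and histone deacetylases, and so silences the bound locus. The best known targets are retrotransposons, and the genes lie in tandem clusters of recent duplicates. Clusters on chromosomes 2 and 4 are known to restrain endogenous retroviruses in mouse embryonic stem cells. For most single members no role in skin is established.

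In the GENCODE M21 annotation of GRCm38, 58 of the 59 members were protein coding, and Zfp939 was annotated as a pseudogene. Translated from that annotation, 54 of the 58 held 3 or more C2H2 fingers, against 2.66% of 21901 protein-coding genes, with a median of 11 and a maximum of 21 fingers in Zfp974. The linker between fingers was found in 56. A strict spelling of the KRAB A box was found in 24 members (0.763% of protein-coding genes), and a wider spelling, added after the strict one was seen to miss many, in 47 (1.74%). The symbols lay on 12 chromosomes, and of the members 40 fell in 5 clusters of 3 or more with gaps under 1 Mb. The largest was a run of 16 on chromosome 4, at chr4:145510759-147848366. Runs of 10 lay at chr17:21567008-22867134 and at chr2:175372436-178078476.

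Because neighbours are recent copies, the 250 bases before the RefSeq start of 5 members are shown, chosen after their values were seen. Zfp982, Zfp984 and Zfp985 are the chromosome 4 members with the largest falls after UVB in controls that passed the test. Zfp981 is a chromosome 4 member that did not pass in any comparison, and Zfp948, on chromosome 17, rose after UVB. RefSeq gives Zfp982 3 starts in all, and the one nearest to the start of the GENCODE gene is shown. The start used for Zfp981 lies inside its GENCODE gene, which begins at chr4:146502027. Capitals mark stretches of 12 or more bases shared with another of the Zfp982, Zfp984 and Zfp985 windows. The windows are from RefSeq on GRCm38.p6, on the strand of the gene, at chr4:147492167-147492416 (plus strand), chr4:147809789-147810038 (minus), chr4:147553027-147553276 (plus), chr4:146514670-146514919 (plus) and chr17:21566728-21566977 (plus).
Zfp982: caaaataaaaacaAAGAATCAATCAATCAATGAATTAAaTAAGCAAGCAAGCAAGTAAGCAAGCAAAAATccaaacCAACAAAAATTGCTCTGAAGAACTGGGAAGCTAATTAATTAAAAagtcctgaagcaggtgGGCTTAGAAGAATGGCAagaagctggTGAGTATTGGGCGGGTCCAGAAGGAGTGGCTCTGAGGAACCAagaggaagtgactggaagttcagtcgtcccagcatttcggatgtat
Zfp984: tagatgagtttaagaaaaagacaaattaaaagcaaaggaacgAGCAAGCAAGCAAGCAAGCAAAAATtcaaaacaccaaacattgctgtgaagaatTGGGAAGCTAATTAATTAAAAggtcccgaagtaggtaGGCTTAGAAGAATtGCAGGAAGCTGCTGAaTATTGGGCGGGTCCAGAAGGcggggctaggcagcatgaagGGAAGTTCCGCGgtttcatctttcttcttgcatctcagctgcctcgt
Zfp985: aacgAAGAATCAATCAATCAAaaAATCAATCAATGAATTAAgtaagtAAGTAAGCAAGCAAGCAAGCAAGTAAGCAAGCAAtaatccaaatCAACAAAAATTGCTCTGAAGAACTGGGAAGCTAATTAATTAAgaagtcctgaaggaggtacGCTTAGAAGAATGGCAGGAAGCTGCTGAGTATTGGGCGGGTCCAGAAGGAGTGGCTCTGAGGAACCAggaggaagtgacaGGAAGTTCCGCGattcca
Zfp981: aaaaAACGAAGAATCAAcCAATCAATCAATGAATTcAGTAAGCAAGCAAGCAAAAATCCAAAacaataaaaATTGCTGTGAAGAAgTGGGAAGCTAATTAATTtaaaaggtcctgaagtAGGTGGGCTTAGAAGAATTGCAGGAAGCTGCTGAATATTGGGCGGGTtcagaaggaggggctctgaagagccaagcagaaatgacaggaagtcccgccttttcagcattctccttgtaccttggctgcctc
Zfp948: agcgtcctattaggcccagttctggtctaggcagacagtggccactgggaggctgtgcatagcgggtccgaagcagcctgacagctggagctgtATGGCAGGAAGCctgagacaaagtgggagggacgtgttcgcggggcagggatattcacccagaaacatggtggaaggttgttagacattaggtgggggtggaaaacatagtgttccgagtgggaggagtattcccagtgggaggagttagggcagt

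Over aligned bases the windows of Zfp982 and Zfp985 were 89.8% identical, those of Zfp984 and Zfp985 86.0% and those of Zfp982 and Zfp984 81.0%. Zfp981, which was not called, was as close to them (84.8% to Zfp982, 83.5% to Zfp984 and 87.6% to Zfp985). The likeness of Zfp982 holds for the start shown: windows before its other 2 starts were 58.0% to 62.7% identical to that of Zfp985 and 57.9% to 62.0% to that of Zfp984. Zfp948 was 56.4% to 65.6% identical to the other 4 windows shown. Promoters of 250 bases before to 50 after the start were matched for 51 members, with 59 promoters. On either strand the C/EBP letters TTGCNNAA stood in 4 of the 59 (6.78%), against 10.8% of all 32851 promoters of this length. The ETS letters CCGGAAGT also stood in 4 (6.78%, against 3.89%), and the NRF1 motif and the CRE letters TGACGTCA in 0 (0.971% and 1.79% of all promoters). These matches describe letters in a window and not binding.

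Libraries held 33.0 to 53.3 M counts, and members took 0.0241% to 0.0405% of them. Cebpb, the deleted gene, averaged 166 ± 13.7 and 291 ± 28.6 CPM (on TMM-scaled library sizes; SD, n = 4) in unexposed and exposed controls, against 0.574 ± 0.298 and 1.93 ± 1.07 CPM in the knockouts, as labelled. Gene detection at equal depth ranged lowest in exposed controls, at 16987 to 19318 genes, but overlapped that of every other group. Unexposed controls held 18454 to 19929, unexposed knockouts 18810 to 21155, and exposed knockouts 19207 to 21538. The mitochondrial share of counts was 5.62% to 8.57% and 5.24% to 9.65% in controls without and with UVB, and 4.33% to 10.2% and 5.44% to 5.99% in knockouts. Of counts from 2 to 101, 68.8% were even (66.3% among members), for a reason the sources do not give, so counting limits may be too narrow. Keratinocyte markers were abundant, with summed basal markers at 1846 to 6552 CPM and suprabasal ones at 35570 to 75370 CPM. In bulk epidermis fewer cells of a type and less RNA per cell cannot be told apart.

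Most members averaged under 10 CPM, and this was not set beside the levels of all genes. Of 59, 24 averaged under 1 CPM, 35 averaged 1 CPM or more and 6 reached 10 CPM. The 5 most abundant by mean CPM were Zfp950, Zfp949, Zfp954, Zfp948 and Zfp942. Per kilobase of exon the order changed: Zfp954 averaged 13.7 CPM per kb over all libraries, Zfp948 10.5, Zfp949 8.60, Zfp950 4.15 and Zfp942 3.64, and Zfp932, named after its values were seen, came between Zfp949 and Zfp950 at 5.10. A filter on low counts left 49 of the 59 members for testing, and 17741 of all 29007 genes with a count. It used all 4 groups, so a weak member could pass through the groups in which it was high. The other 10 had 4 to 108 counts over all libraries and 5 to 14 libraries at 0.

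Summed over the 59 members, levels were 311 ± 23.3 CPM in unexposed controls, 313 ± 12.8 in unexposed knockouts, 290 ± 11.6 in exposed controls and 306 ± 20.7 in exposed knockouts (SD, n = 4). The groups overlapped on this scale. On plain library totals the sum was 307 ± 22.0 CPM in unexposed and 255 ± 12.0 in exposed controls, and 345 ± 48.9 and 322 ± 40.0 in the knockouts. There the exposed controls, at 241.3 to 266.2 CPM, did not overlap the libraries of any other group, at 285.8 CPM or more. Both the size of the difference after UVB and the overlap thus depended on the scaling. Tested members with 0 counts numbered 5 to 11 in an exposed control library and 0 to 4 in any other library, beside the gene detection given above. These zeros are of raw counts, and some tested members passed the filter through the other groups. At equal depth 39.5 to 48.0 of the 59 members would have a count in exposed control libraries. The number was 45.9 in unexposed control library 3, so these groups overlapped. The part of detection in the results below was not tested.

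**Figure D1:**
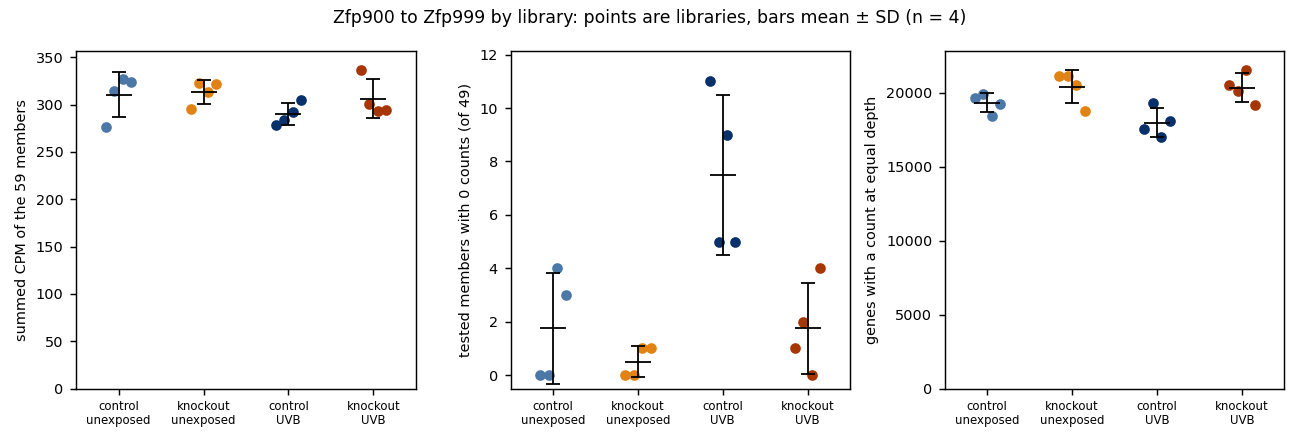
The summed CPM of the 59 members, the number of the 49 tested members with 0 counts, and the genes detected at equal depth, for each library (points) with the mean and SD of each group (n = 4). Exposed control libraries had 5 to 11 tested members at 0 counts, more than any library of the other groups, and their summed CPM ranged from 278 to 305. The zeros are of raw counts and not at equal depth.

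In control epidermis UVB was followed by lower transcript levels of 8 members and higher levels of 4. Of the falls, 4 were in the chromosome 4 cluster, with Zfp982 and Zfp984 close to undetected 6 h after exposure. Zfp982 and Zfp985 passed the filter on low counts through the other groups and were removed by it when these 2 groups were fitted alone, so 6 falls are of members that could be tested within the comparison. Zfp941 and Zfp948 rose the most of the members that rose. These counts came from edgeR's quasi-likelihood test with Benjamini-Hochberg adjustment over 17741 genes at a threshold of 0.05, as do all adjusted p-values here unless another tool is named. By the same rule 17.7% of all genes rose and 18.0% fell, so 4 of 49 and 8 of 49 were at or below the background. Groups did not overlap in 3 members that were higher and 6 that were lower, against 16.3% and 17.5% of all genes. At an unadjusted p under 0.05 there were 16 members of 49, against 43.6% of all genes. The fitted log2 fold change was below 0 in 43 of 49 members, against 51.0% of all genes, and the median was -0.50 against -0.03. With upper-quartile scaling or DESeq2 size factors it was also below 0 in 43, and with limma voom in 44. The filter removed 7 of the 49 when these 2 groups were fitted alone. The count below 0 and the median therefore include members kept through the other groups. Of the 35 members averaging 1 CPM or more, 29 were below 0 (median -0.38), as were all 14 tested members under 1 CPM. Among the 266 other Zfp-numbered genes tested, 34 rose and 41 fell, with a median of -0.20.

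Zfp984 fell the most of the members that the filter also kept in a fit of these 2 groups alone. Zfp984 (ENSMUSG00000078495, chr4:147753974-147809788, minus strand) encodes a KRAB protein with 11 fingers. It read 1.14, 3.13, 1.82 and 2.71 CPM in unexposed control libraries 1 to 4, and 0, 0.0458, 0.0305 and 0.174 CPM in the exposed ones, 8 counts in all against 394. The groups did not overlap, and the fitted level was 35.7-fold lower after UVB (log2 fold change -5.16, SE 0.71, adjusted p = 9.36e-06). The exposed control mean, 0.0625 CPM, lay below the floor of 3 counts per library (0.0869 CPM) used for Zfp982 below. The size of this fall is therefore uncertain. Zfp982 (ENSMUSG00000078496, chr4:147492417-147513486, plus strand), a KRAB gene with 7 fingers known for a role in embryonic stem cells, read 0.197, 0.330, 0.910 and 0.455 CPM unexposed and 0 in all 4 exposed control libraries. Against a floor of 3 counts per library (0.0869 CPM) it was at least 5.45-fold lower (edgeR adjusted p = 0.00385). Because the filter removes Zfp982 from these 2 groups, that p is given for completeness and the counts are the description. The Zfp984 fall passed in each fit without 1 library, with DESeq2, limma voom and other scalings, and in the fit of 2 groups (adjusted p = 0.00127).

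Copies limit how far these counts can be assigned. Of the 50-base words in Zfp984 transcripts, 54.5% occurred in another gene, 46.9% in Gm13212, which itself read 0.843 CPM unexposed and 0.347 CPM exposed (log2 fold change -1.27, adjusted p = 0.294). Zfp992 shared 43.0%, Zfp974 16.8%, Zfp985 15.9% and Zfp982 11.9% of its words. In the remaining called members the share was 5.80% or less. How the authors' counting treated reads with several matches was not stated.

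The other falls on chromosome 4 were weaker. Zfp985 (chr4:147553277-147585198, 10 fingers) read 0.373, 1.13, 0.243 and 0.328 CPM unexposed and 0, 0.0458, 0.0305 and 0.209 exposed (9 counts in all), without overlap (log2 fold change -2.87, SE 1.03, adjusted p = 0.0347). This call ended without unexposed control library 2 (-2.16, adjusted p = 0.142), without exposed control library 1, 2 or 3 (adjusted p up to 0.0703) and with no filter (adjusted p = 0.0501), and the filter removed Zfp985 from the fit of these 2 groups. Zfp992 (chr4:146449023-146470292, 11 fingers) read 7.54, 6.05, 6.22 and 6.59 CPM unexposed and 0.444, 2.49, 4.96 and 3.62 exposed, again without overlap (-1.20, SE 0.44, adjusted p = 0.0396). The Zfp992 call ended without any 1 of the 4 unexposed control libraries, without exposed control library 2, and in a fit of these 2 groups alone (adjusted p up to 0.0872).

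Called falls elsewhere in the genome were smaller than those of Zfp982, Zfp984 and Zfp985. Zfp945 (chr17:22846697-22867134, 18 fingers) read 3.47, 4.19, 2.58 and 4.55 CPM unexposed and 0.665, 2.68, 1.58 and 0.695 exposed (log2 fold change -1.39, SE 0.42, adjusted p = 0.0136), with exposed library 2 inside the unexposed range. Leaving out the 3 libraries with the most Gm42418, an alternative chosen after seeing the data, ended this call (adjusted p = 0.0816) and those of Zfp992 and Zfp942 in controls (0.0648 and 0.0517). Zfp974 (chr7:27907392-27929460, 21 fingers) read 2.94, 3.67, 0.940 and 3.42 CPM against 0.721, 0.938, 0.731 and 1.495 (-1.50, SE 0.50, adjusted p = 0.0231). Its unexposed library 3 lay within the exposed values. The call ended without unexposed control library 1, 2 or 4, without exposed control library 1, and in a fit of these groups alone (adjusted p up to 0.0783).

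Zfp942 and Zfp950, which belong to the 5 most abundant members, fell in both genotypes. Zfp942 (chr17:21926960-21962464, 11 fingers) read 17.4, 22.2, 23.8 and 23.4 CPM in unexposed and 15.1, 15.2, 16.6 and 16.5 CPM in exposed controls. In knockouts it read 20.7, 25.4, 21.7 and 21.1 CPM unexposed and 20.4, 15.5, 15.1 and 16.1 exposed. The groups did not overlap in either genotype, and the log2 fold changes were -0.46 (SE 0.15, adjusted p = 0.0211) in controls and -0.41 (SE 0.15, adjusted p = 0.0411) in knockouts. The control call ended without unexposed control library 3 or 4, and the knockout call ended in 8 of the fits without 1 library (unexposed control 2 and 4, unexposed knockout 1 to 3, exposed knockout 2 to 4) and with no filter, with adjusted p up to 0.139. Zfp950 (chr19:61053840-61140840, 17 fingers) read 45.2, 49.1, 62.5 and 57.4 CPM in unexposed and 31.2, 27.5, 36.7 and 48.1 CPM in exposed controls, where library 4 overlapped the unexposed range (-0.58, SE 0.17, adjusted p = 0.0117). In knockouts it read 40.9, 46.0, 54.4 and 65.1 CPM unexposed and 37.9, 33.0, 37.2 and 32.0 exposed, without overlap (-0.56, SE 0.17, adjusted p = 0.0159).

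The 4 members that rose did so in both genotypes. Zfp941 (chr7:140807449-140822178, 9 fingers, neither KRAB spelling found) read 0.570, 0.494, 0.0303 and 0.401 CPM in unexposed and 2.19, 2.68, 4.99 and 2.08 CPM in exposed controls. In knockouts it read 0.375, 0.372, 0.905 and 1.81 CPM unexposed and 2.09, 4.49, 2.80 and 3.86 CPM exposed. Every exposed library lay above every unexposed one of its genotype. The level was 7.84-fold higher in controls (log2 fold change 2.97, SE 0.66, adjusted p = 0.00127) and 3.86-fold higher in knockouts (1.95, SE 0.63, adjusted p = 0.0205). The knockout call ended without unexposed knockout library 1 or 2 or exposed knockout library 2 or 4 (adjusted p up to 0.066).

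Zfp948 (chr17:21567008-21588699, a KRAB gene with 15 fingers) rose to nearly the same level in every exposed control library. It read 15.3, 16.2, 23.5 and 18.1 CPM in unexposed controls and 38.8, 39.9, 40.2 and 39.4 CPM in exposed ones, 2.16-fold higher (log2 fold change 1.11, SE 0.17, adjusted p = 2.31e-05). In knockouts 16.6, 16.8, 19.1 and 23.8 CPM became 35.1, 33.0, 26.9 and 42.2 CPM, 1.80-fold higher (0.85, SE 0.17, adjusted p = 0.000408). The groups did not overlap in either genotype. Zfp954 (chr7:7114690-7121488, KRAB, 8 fingers) read 25.8 to 27.4 CPM against 30.7 to 45.7 in controls (0.62, SE 0.16, adjusted p = 0.00323) and 19.4 to 29.1 against 33.1 to 49.1 in knockouts (0.74, SE 0.16, adjusted p = 0.000785), without overlap. The Zfp948 and Zfp954 rises passed in every alternative run.

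Zfp961 (chr8:71951038-71993792, KRAB, 11 fingers) read 6.10, 7.32, 5.58 and 5.79 CPM in unexposed and 7.01, 9.15, 11.8 and 9.28 CPM in exposed controls, with a small overlap (log2 fold change 0.59, SE 0.21, adjusted p = 0.0326). In knockouts 8.54, 7.71, 5.59 and 6.87 CPM compared with 11.1, 13.1, 10.6 and 9.54, without overlap (0.62, SE 0.21, adjusted p = 0.0249). Both calls were fragile. The control call ended without unexposed control library 1, 3 or 4, exposed control library 2 or 3 or exposed knockout library 4, with limma voom (0.051), with no filter (0.131) and in a fit of the 2 groups alone (0.0819). The knockout call ended without unexposed knockout library 3 or 4 or exposed knockout library 2, with upper-quartile scaling, with no filter and without the 3 libraries with the most Gm42418, with adjusted p up to 0.101.

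**Figure D2:**
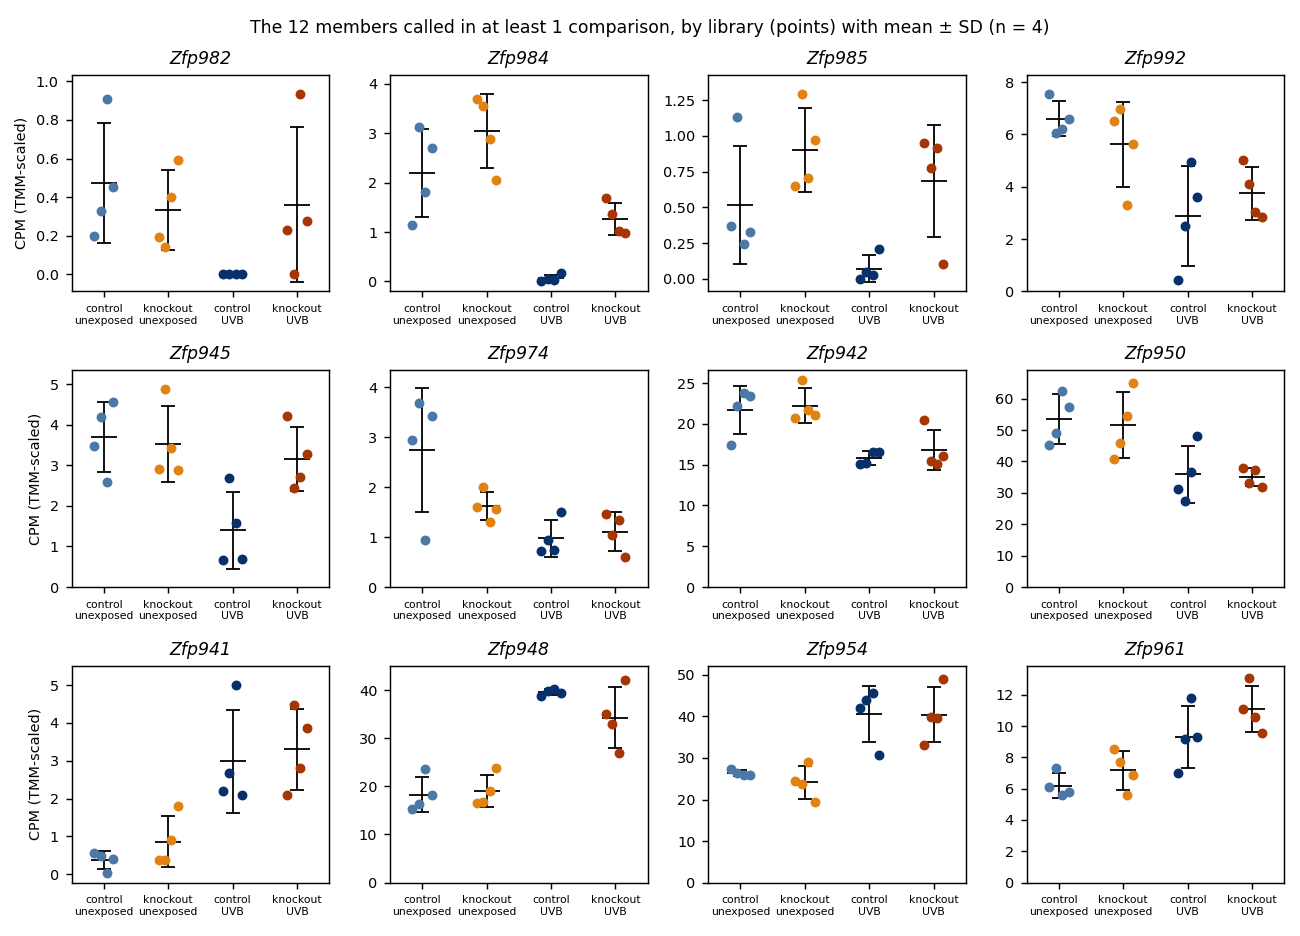
CPM by library (points) with the mean and SD of each group (n = 4) for the 12 members called in at least 1 comparison, each panel with its own linear axis. Zfp982 stood at 0 and Zfp984 at 0.174 CPM or less in all 4 exposed controls, and Zfp941, Zfp948 and Zfp954 were higher in every exposed library than in any unexposed library of the same genotype.

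In knockout epidermis UVB was followed by fewer called changes among the members: 4 rose and 2 fell. Over all genes 18.1% rose and 14.1% fell in this comparison, so both counts were below the background. Groups did not overlap in 4 members that were higher and 5 that were lower, against 19.7% and 16.1% of all genes. At an unadjusted p under 0.05 there were 8 members of 49, against 39.8%. The fitted value was below 0 in 35 of 49 members (49.6% of all genes), with a median of -0.31 against 0.01. The 4 that rose, Zfp941, Zfp948, Zfp954 and Zfp961, were the same as in controls, 100.0% of each list, and the 2 that fell, Zfp942 and Zfp950, made up 25.0% of the control list. Over all genes the shared calls were 80.1% of those higher and 62.3% of those lower in controls. The comparisons share no libraries. Of the 6 members called lower in controls alone, Zfp984 read 3.69, 3.56, 2.88 and 2.06 CPM in unexposed and 1.68, 1.36, 1.03 and 0.981 CPM in exposed knockouts. These groups did not overlap, but the test was not passed (log2 fold change -1.27, SE 0.55, adjusted p = 0.0875). It was passed with DESeq2 (adjusted p = 0.0118), with limma voom (0.0126), in a fit of these 2 groups (0.00838) and without exposed control library 1 or 4 (0.036 and 0.0348). The other log2 fold changes in knockouts were 0.12 for Zfp982 (SE 1.18, adjusted p = 0.958), -0.40 for Zfp985 (SE 0.91, adjusted p = 0.803), -0.58 for Zfp992 (SE 0.44, adjusted p = 0.357), -0.16 for Zfp945 (SE 0.41, adjusted p = 0.832) and -0.54 for Zfp974 (SE 0.49, adjusted p = 0.459).

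**Figure D3:**
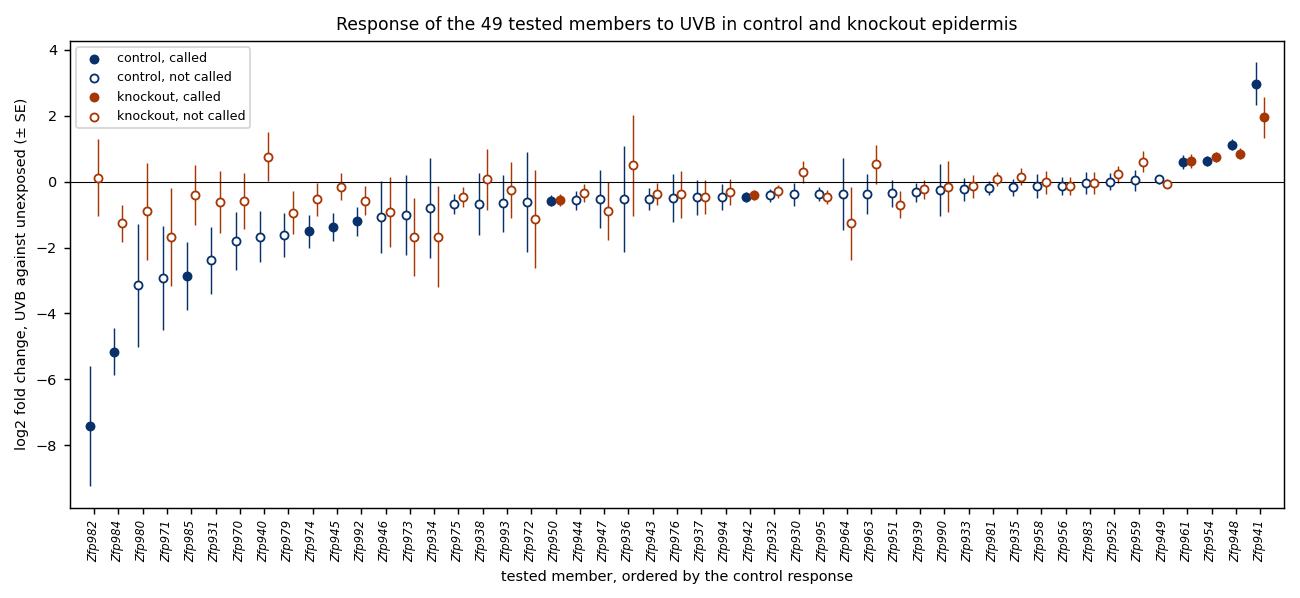
Log2 fold change after UVB with its SE for the 49 tested members, in control (blue) and knockout (red) epidermis, ordered by the control value; filled points passed the test. Values below 0 are seen in 43 members in controls and 35 in knockouts, and the fitted value of Zfp982 in controls (-7.42) rests on 0 counts in the exposed group.

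Whether the UVB response differed between the genotypes was tested as the difference between the responses, knockout minus control. No member passed with edgeR (0 of 49, and 0.0% of all genes). At an unadjusted p under 0.05 there were 4 members of 49, against 5.88% of all genes, and limma voom called 0. DESeq2 called 1, Zfp984, with a difference of 3.91 (adjusted p = 0.00355), where it called 0.0338% of all genes in that direction. In edgeR the Zfp984 difference was 3.89 (SE 0.87, adjusted p = 0.365), that of Zfp945 1.23 (SE 0.58, adjusted p = 0.844) and that of Zfp985 2.47 (SE 1.35, adjusted p = 0.88). So a called fall in controls beside none in knockouts was not shown to be a difference in response. The DESeq2 call for Zfp984 concerns how far it fell. DESeq2 also called Zfp984 lower after UVB in knockouts (log2 fold change -1.33, adjusted p = 0.0118). Zfp956 and Zfp983 had the smallest differences, 0.010 (SE 0.38) and -0.002 (SE 0.47).

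Few members differed between the genotypes. In unexposed epidermis 0 of 49 members passed in either direction, where 0.964% of all genes were higher and 1.14% lower. The count at an unadjusted p under 0.05 was 0 with edgeR (12.4% of all genes), 2 with DESeq2 (13.2%) and 2 with limma voom (14.8%). Groups did not overlap in 2 members that were higher and 1 that was lower, against 4.64% and 5.36% of all genes. The median of the members was 0.057 against 0.002 over all genes. Zfp975 (log2 fold change 0.01, SE 0.31) and Zfp939 (0.02, SE 0.29) had the smallest differences in unexposed epidermis.

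After UVB 2 members were higher in knockout than in control epidermis and 0 were lower, against 2.36% and 2.32% of all genes. Groups did not overlap in 3 members that were higher and 0 that were lower (6.47% and 4.84% of all genes), and 7 of 49 had an unadjusted p under 0.05 (20.3%). The 2 that passed were Zfp982 and Zfp984, and in a fit of these 2 groups alone the filter removed Zfp982 and left 1, Zfp984 (adjusted p = 0.0486). This comparison uses the same exposed control libraries as the UVB comparison in controls, so it does not add separate evidence on them. Zfp984 read 1.68, 1.36, 1.03 and 0.981 CPM in exposed knockouts, a fitted 20.5-fold above the exposed controls, with no overlap (log2 fold change 4.36, SE 0.70, adjusted p = 0.00106). The exposed controls held 8 counts, a mean below the floor of 3 counts per library, so this size is uncertain. Zfp982 read 0.232, 0, 0.933 and 0.277 CPM, at least 4.15-fold above the floor of the exposed controls (edgeR adjusted p = 0.0335 over all 16 libraries), and knockout library 2 overlapped them at 0. The Zfp982 call ended without exposed control library 1, 3 or 4, without exposed knockout library 1 or 3 (adjusted p up to 0.0881), with limma voom (0.174), and without the 3 libraries with the most Gm42418 (0.0691). Zfp985, at 0.948, 0.773, 0.914 and 0.107 CPM in exposed knockouts, did not pass (3.27, SE 1.04, adjusted p = 0.0748) but did with DESeq2 (0.00998) and without exposed control library 4 (0.03). Zfp945 passed without exposed control library 2 (1.71, adjusted p = 0.0195; 1.16 and adjusted p = 0.116 with all libraries). The fitted value was above 0 in 35 of 49 members, against 53.6% of all genes, with a median of 0.31 against 0.04. With limma voom it was above 0 in 43, with a median of 0.53 against 0.11 over all genes. The filter removed 7 of the 49 when these 2 groups were fitted alone. The count above 0 and the median therefore include members kept through the other groups. Of the 35 members averaging 1 CPM or more, 25 were above 0, with a median of 0.22 in edgeR. Exposed knockouts also had more basal keratinocyte markers, 4558 to 6496 CPM summed over 7 genes against 1846 to 3936 in exposed controls, of which 4 passed as higher. Their 8 Langerhans cell markers summed to 848 to 1064 CPM against 675.7 to 839.1, and 5 passed as higher. Suprabasal markers went the other way, with 7 of 8 tested below 0 and 2 passing as lower. Their sums were 35570 to 50760 CPM in exposed knockouts and 40510 to 75370 in exposed controls. Neutrophil markers summed to 309 to 572 CPM against 672 to 1092, and 0 of 5 tested passed. Without UVB the basal sums were 2797 to 6552 CPM in knockouts and 1853 to 2711 in controls. The unexposed Langerhans sums were 641.4 to 946.7 and 585.2 to 768.3 CPM. In that comparison 2 basal and 2 Langerhans cell markers passed as higher (0.964% of all genes). The part of these markers and of gene detection in the difference was not tested. Zfp954 and Zfp950 had the smallest differences, -0.008 (SE 0.15) and -0.033 (SE 0.17).

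By position, the chromosome 4 cluster held 4 of the 8 members called lower in controls. It counts 16 symbols, of which 14 were members and 10 were tested. In exposed against unexposed controls 4 of the 10 fell (Zfp982, Zfp984, Zfp985 and Zfp992), 0 rose, and all 10 fitted values were below 0, with a median of -1.41. Over all genes 18.0% fell and 17.7% rose. Of the 4 that fell, Zfp982 and Zfp985 were removed by the filter in the fit of these 2 groups. That filter removed 7 of the 49 tested members in all. The 10 fitted values and their median can thus include more members kept through the other groups. In knockouts 0 of the 10 were called (14.1% of all genes fell and 18.1% rose), 8 were below 0, and the median was -0.325. Zfp981, in the same cluster and with a similar upstream window, read 7.65 to 10.6 CPM in unexposed and 6.78 to 9.56 CPM in exposed controls. Of the 10 tested members of the chromosome 17 cluster 1 rose and 2 fell in controls (median -0.49), and 1 and 1 in knockouts (-0.36). In the chromosome 2 cluster 5 of 10 symbols were tested and 0 were called in either genotype, with medians of -1.79 and -1.14, the former below that of the chromosome 4 cluster. Counts this small do not set the clusters apart from all genes. Members with a mean under 1 CPM had the lower medians: -1.34 in controls over 14 tested members, against -0.38 over the 35 with 1 CPM or more. Weak members could pass the filter through groups in which they were high. The medians of weak members and of the clusters can include such members, so they are a description only.

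**Figure D4:**
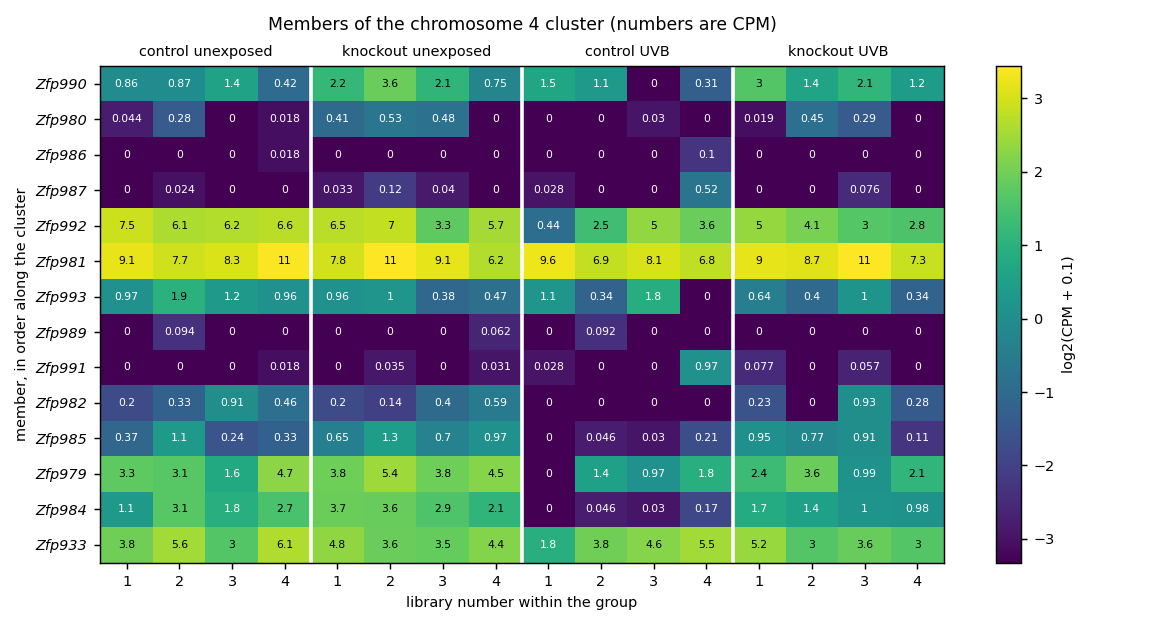
Level of the 14 chromosome 4 members in each of the 16 libraries, in order along the cluster, coloured by log2(CPM + 0.1) with the CPM printed in each cell. Zfp982, Zfp985 and Zfp984 read 0.209 CPM or less in every exposed control library, while Zfp981 read 6.78 to 9.56 CPM there.

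Failing the test covered both steady and noisy members. Zfp949, the second most abundant, read 36.9 ± 6.19 CPM unexposed and 38.6 ± 3.78 CPM exposed in controls and 33.7 ± 6.02 and 32.3 ± 2.88 CPM in knockouts (SD, n = 4), and its log2 fold changes after UVB were 0.07 (SE 0.15) and -0.06 (SE 0.15). Zfp952 and Zfp983 had the smallest UVB differences in controls, -0.008 (SE 0.26) and -0.037 (SE 0.33), and Zfp958 and Zfp983 in knockouts, -0.024 (SE 0.36) and -0.040 (SE 0.33). These were named for their small differences. At the other end, Zfp980 (log2 fold change -3.15, SE 1.86, adjusted p = 0.204) and Zfp971 (-2.93, SE 1.58, adjusted p = 0.163), named after their values were seen, had large fitted falls in controls that did not pass. Zfp971 read 0.526, 1.27, 0.758 and 0 CPM in unexposed and 0, 0, 0.0609 and 0.278 CPM in exposed controls, so the groups overlapped. Failing the test does not show that levels were equal.

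The machinery these proteins act through changed in part. Of 41 listed corepressor genes 39 were tested (Tasor had no match and Atf7ip2 did not pass the filter). After UVB 6 rose and 8 fell in controls, and 5 rose and 7 fell in knockouts, near the share of all genes (17.7% and 18.0%, and 18.1% and 14.1%). In the knockout comparisons 0 passed. Trim28, the KRAB corepressor, read 62.7, 58.5, 43.7 and 55.9 CPM in unexposed and 98.0, 94.5, 93.0 and 81.7 CPM in exposed controls, without overlap (log2 fold change 0.73, SE 0.14, adjusted p = 0.000411). In knockouts it read 65.2, 63.4, 58.4 and 49.6 CPM against 84.0, 98.8, 74.3 and 114 CPM, also without overlap (0.65, SE 0.14, adjusted p = 0.00133). Setdb1, which methylates histone H3 lysine 9, did not pass in controls (-0.33, SE 0.15, adjusted p = 0.0865) or knockouts (-0.15, SE 0.15, adjusted p = 0.515). Between genotypes Trim28 differed by 0.10 unexposed (SE 0.14, adjusted p = 0.922) and 0.017 exposed (SE 0.14, adjusted p = 0.971), and Setdb1 by -0.064 and 0.122 (adjusted p = 0.967 and 0.711).

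Partners of Trim28 and Setdb1 were among the corepressor genes that fell, while other genes of the list rose. Trim24, a Trim28 relative, fell by 1.77 on the log2 scale in controls and by 1.09 in knockouts (edgeR adjusted p = 1.36e-07 and 3.82e-05). Atf7ip, which stabilises Setdb1, fell by 1.19 and 0.77 (adjusted p = 2.26e-06 and 0.000296). The DNA methyltransferase genes Dnmt3a, which fell by 1.16 and 1.03 (adjusted p = 3.42e-05 and 0.000133), and Dnmt1, which fell by 0.91 and 0.55 (adjusted p = 3.74e-05 and 0.00446), moved the same way. The chromatin remodeller gene Atrx fell by 0.89 and 1.16 (adjusted p = 0.0064 and 0.000917), and Chd3 fell by 0.97 and 0.87 (adjusted p = 0.000412 and 0.00113). In contrast, Mta2 rose by 0.472 and 0.693 (adjusted p = 0.0299 and 0.00255) and Daxx by 0.475 and 0.504 (0.0101 and 0.00725). Morc2a rose by 0.566 and 0.484 (0.00382 and 0.0121). Trim33 rose by 0.391 in controls (0.0141) and did not pass in knockouts (0.072, adjusted p = 0.718).

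Summed markers of some other cell types were higher after UVB, and a sum rests mostly on its most abundant genes. The 7 neutrophil markers summed to 67.6 to 230 CPM in unexposed and 672 to 1092 CPM in exposed controls, and to 91.0 to 190 and 309 to 572 CPM in the knockouts. Of the 5 tested, 3 passed as higher in controls and 2 in knockouts (17.7% and 18.1% of all genes). Their median log2 fold changes were 0.944 and 1.784. The 10 hair follicle markers summed to 1556 to 2972 CPM and 4025 to 7264 CPM in controls, and to 2087 to 3144 and 4999 to 8615 CPM in knockouts. Of these 10, 2 passed as higher in controls and 4 in knockouts, with medians of 0.902 and 1.853. The 6 monocyte or macrophage markers, with Itgam at 0 counts, summed to 17.3 to 26.5 CPM and 39.4 to 62.7 CPM in controls, and to 30.7 to 38.01 and 49.9 to 58.03 CPM in knockouts. Of the 5 tested, 2 passed as higher in controls and 1 in knockouts, with medians of 1.146 and 0.175. The 8 male germ cell and embryonic stem cell markers, for tissues in which many KRAB zinc finger genes are known, summed to 2.19 CPM or less in every library. The part of cell composition in the members' values was not tested.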

How the data were processed

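RNA sequencing libraries from mouse epidermis were made with a directional kit, per the labels' protocols. The deposited table holds raw counts per Ensembl gene, and its 16 columns were matched to samples by library number. The tools named are STAR, HTSeq, DESeq2 and FastQC, per the submitters' processing notes. The sources used here give no versions, genome build or strand setting, so reads of overlapping or antisense genes may not be separated. Symbols were taken from GENCODE M21 (GRCm38) for 49326 of 49585 genes.

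The model was edgeR 4.0.16 (R 4.3.3) with filterByExpr (17741 genes), TMM factors, a robust quasi-likelihood model with 1 mean per group over all 16 libraries, and two-sided F tests adjusted by Benjamini-Hochberg (threshold 0.05). An SE is the absolute log2 fold change divided by the root of F. Knockout was compared with control at each exposure and UVB with no UVB in either genotype, and the response in knockouts was compared with that in controls. A group at 0 counts was set against a floor of 3 counts per library, which covers counting error only. Alternatives were DESeq2 1.42.0, limma 3.58.1 voom, other scalings, no filter, fits of 2 groups, each library left out and, added after seeing the data, a sex term (Ddx3y above 10 CPM) and leaving out the 3 libraries with over 5% of counts in Gm42418. All tools were tested on simulated data. Python 3.11.15 was used with pandas 2.3.3 for tables, matplotlib 3.10.9 for plots and Biopython 1.88 for alignment of the windows.

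Library totals were 33.0 to 53.3 M counts. Between replicates the chi-square over its degrees of freedom was 41.8 or more (genes with at least 20 counts), so no libraries were merged. Members and lists were chosen with earlier results of these data known. Named members were all those past the threshold, the 5 with the highest mean CPM, the 2 with the smallest difference in each comparison, the lowest by counts and those at 0. Named corepressor genes were up to 6 per comparison with the smallest p, with Trim28 and Setdb1, and 1 of these genes is not reported here. Other named genes were chosen after their values were seen. Protein sequences were not used here. Lists of homeobox, Sox, forkhead, and Klf and Sp genes were counted the same way: 2 of 32, 3 of 11, 1 of 19 and 5 of 19 tested genes rose after UVB in controls, and 9, 2, 4 and 5 fell.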

Additional observations from a re-analysis of the deposited data

Results flagged for a closer look

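Each group of 4 libraries was searched for a library far from the other 3, over the named members and the summed level. Of 80 groups examined 6 were marked, and chance marks about 1 in 20. Zfp985 read 1.13 CPM in unexposed control library 2, against 0.243 to 0.373 CPM in the other 3. Zfp939 read 3.29 CPM in unexposed control library 1, below 5.79 to 6.23 CPM in the others. Unexposed knockout library 4 stood high for Zfp956 (9.12 CPM against 5.97 to 6.42) and for Zfp975 (10.9 CPM against 5.55 to 6.01). In exposed knockout library 1 Zfp958 read 3.70 CPM (others 2.90 to 3.02), and the summed members read 336.9 CPM (others 293.3 to 300.5).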

How the results depend on the processing

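A count of members past the threshold moved by over 1.5 times in 12 of the 16 fits without 1 library and in 4 other settings. After UVB, 2 members were higher in knockouts than in controls, against 4 with DESeq2 (3.96% of all genes there), 1 with limma voom (2.30%) and 1 in a fit of the 2 groups. The 8 lower in exposed controls became 4 in a fit of 2 groups (18.0% of all genes), where Zfp982 and Zfp985 were removed by the filter, and the 2 lower in exposed knockouts became 5 there (18.3%) and 1 with no filter (8.72%). DESeq2 called 1 difference between the UVB responses, where edgeR called 0. With 1 library left out at a time, the counts ranged from 1 to 4 (higher in exposed knockouts than in exposed controls), 3 to 4 and 6 to 11 (higher and lower after UVB in controls), and 2 to 4 and 1 to 3 (higher and lower after UVB in knockouts). They stayed at 0 for both directions between unexposed groups, for members lower in exposed knockouts than in exposed controls and for the difference between responses. A sex term changed no call of a named member. No called value changed sign in any setting. The median after UVB ranged from -0.57 to -0.45 in controls and from -0.45 to -0.21 in knockouts with 1 library left out. Limma voom moved the median of all genes by -0.11 after UVB in controls, and no other scaling moved one by over 0.1. Fits of 2 groups tested fewer members (42 of 59 in exposed against unexposed controls). Levels under 1 CPM rest on few counts. No paired analysis was possible because the replicate numbers follow accession order and pair nothing.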
